A study of Mus musculus with 24 samples.

Results

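The comparison described here sets neural progenitor cells kept for 24 h with 0.5 µM of the active enantiomer of JQ1, (+)-JQ1, against cells of the same kind kept for the same time with the same dose of its inactive mirror image, (−)-JQ1. It holds 6 of the 24 libraries of the series, 3 in each group, chosen by the enantiomer, dose and time in their titles. The other 18 libraries cover 0.2 µM at 24 h and both doses at 12 h, again with 3 libraries for each enantiomer. All cells came from the cortex of C57BL/6 mouse embryos at embryonic day 12, were expanded with basic fibroblast growth factor, and were treated at passage 3 in differentiation medium, so the (−)-JQ1 cells were in differentiation medium as well. Each group was made from 3 independent cell preparations, per the design text, and whether libraries with the same number in different groups share a preparation is not stated there. (+) and (−)-JQ1 are the 1 pair of compounds compared, at matched dose and time. No library without any form of the drug was among the samples used here. Gene levels were measured by sequencing of poly(A)-selected RNA and are given as FPKM, read fragments scaled to the length of the transcript and the size of the library, which allow levels to be set side by side between genes. Every gene with at least 1 FPKM in at least 3 of the 24 libraries was tested, 13801 of 26636 genes. Fold changes are differences of log2(FPKM + 1) between the group means, given with their standard error. That scale understates the change of genes with low levels. A gene was called when its limma p, adjusted by the method of Benjamini and Hochberg over all genes tested, was under 0.05.

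JQ1 fits into the pocket with which the bromodomains of BET proteins such as Brd2 and Brd3 bind acetylated lysines on histones. BET proteins bring the elongation kinase P-TEFb to promoters and enhancers, and genes with large enhancers, among them many cell identity genes and Myc, are known to be sensitive to their loss. The enantiomers have the same atoms and bonds and differ only in the arrangement at 1 carbon, and (−)-JQ1 does not bind the pocket, so it serves as the control compound. Neural progenitors of the cortex can form neurons, astrocytes and oligodendrocytes, the cells that wrap axons in myelin, and the last pass through precursor and premyelinating stages, each with its own genes.

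The cells carried the markers of neural progenitors in all 6 libraries. The stem cell factor gene Sox2 stood at 236 to 369 FPKM, the intermediate filament gene Vim at 895 to 1482 and Nes at 63.1 to 120.4. The brain lipid-binding protein gene Fabp7 stood at 1480 to 4166, Pax6 at 20.7 to 35.1 and Sox1 at 23.6 to 52.3 FPKM. Msi1, another marker of progenitors, was lower in (+)-JQ1, with 31.2 to 34.7 FPKM against 47.7 to 50.8 in (−)-JQ1. Defining genes of microglia (Aif1), endothelium (Cdh5 and Cldn5) and red cells (Hba-a1 and Hbb-b1) were listed at 0 in all 6 libraries, and Cx3cr1, Csf1r, Pecam1 and the choroid plexus gene Ttr did not exceed 0.737 FPKM. The absolute depth of FPKM libraries is unknown, and steps between low values put the deepest and the shallowest of the 24 libraries within a factor of 1.12. Genes with any value above 0 numbered 16953 to 17161 in the (+) libraries and 17643 to 17962 in the (−) libraries, without overlap. None of the 6 libraries stood apart in its FPKM sum, which ran from 456296 to 484385. 3 libraries of the 0.2 µM, 24 h groups did, 2 of them with 42.7% and 46.9% of the sum in the microRNA gene Mir5105, and the third, (−) replicate 3, with a sum of 570329. They enter here only through the shared estimate of spread and the dose comparison.

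More genes were lower than higher in (+)-JQ1. Of the 13801 genes, 5273 were called (38.2%), 1893 of them higher in (+)-JQ1 (13.7%) and 3380 lower (24.5%). Among calls of at least 2-fold, 170 genes were higher (1.23%) and 1042 lower (7.55%), so 86.0% of such calls were falls. The groups did not overlap in 48.1% of all genes, 18.7% with (+) above (−) and 29.4% with (+) below. At least 4-fold apart were 20 genes that rose and 180 that fell. Of those 20, 14 were clustered histone genes and 3 short RNA genes, and the others were Jag1, Txnip and Insm1. The standard error of a gene's fold change had a median of 0.145. The split depends on the scaling of the libraries. With each library divided by its median ratio to the average library, 2601 genes were higher and 3014 lower, and with a smooth trend on GC content removed from each library, 2953 and 2978. These steps moved the median of all genes from -0.05 as deposited to 0.02 and 0.03. Of the 8528 genes not called, 8004 had a 95% interval that lay within 2-fold either way on the scale of log2(FPKM + 1). As that scale understates changes at low levels, the interval can still hold a larger difference in FPKM for genes of low level.

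**Figure D1:**
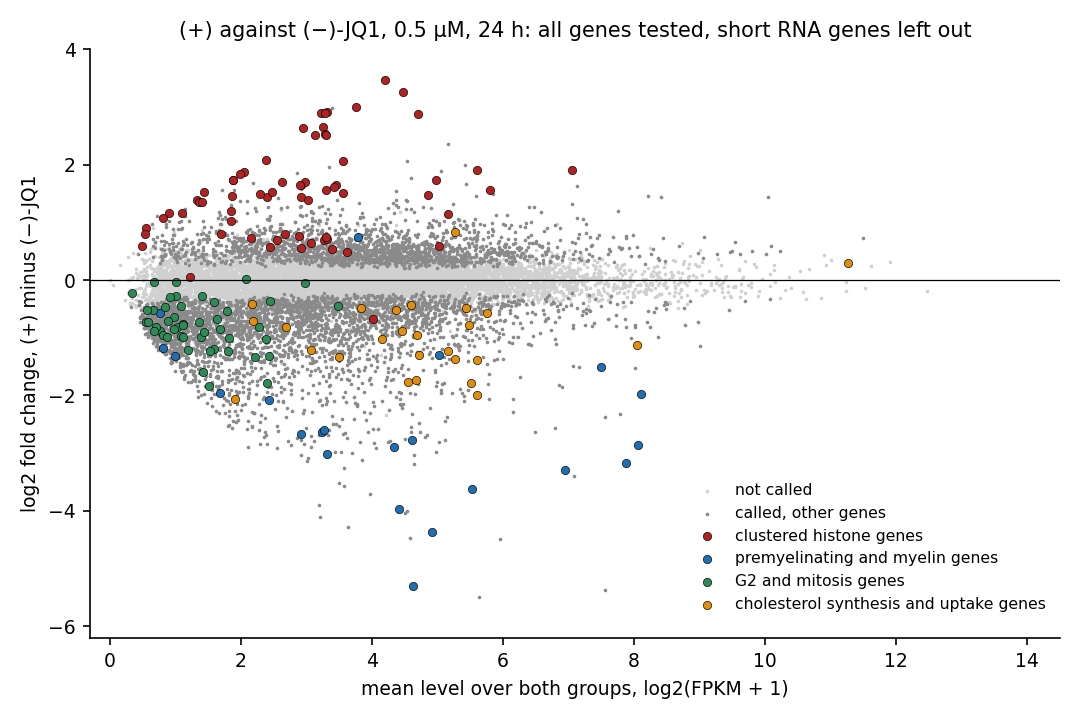
Fold change between the groups (y axis, log2, (+) minus (−)-JQ1) against the mean level of each gene over both groups (x axis, log2(FPKM + 1)) for all genes tested, short RNA genes left out. Dark grey points were called, and the colours mark 4 gene lists: 65 of 66 clustered histone genes lie above 0, and premyelinating and myelin genes reach down to -5.31.

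Calls of any size leaned towards falls among genes with low levels and not among those of 20 FPKM and over. Of 3633 genes with a mean of 1 to 5 FPKM, 34.9% were called lower and 9.77% higher. Between 5 and 20 FPKM, a class of 4963 genes, the shares were 22.1% and 15.9%. Between 20 and 100 FPKM they were 15.5% and 17.6%, and above 100 FPKM 11.2% and 11.9%. Among calls of at least 2-fold, falls outnumbered rises in these classes as well, with 322 against 66, 135 against 43 and 19 against 10 in that order. Genes with a mean under 1 FPKM (976, with 40.6% lower and 4.92% higher) were tested only where 3 libraries reached 1 FPKM. Many thus entered through the group in which they were high, and their shares cannot be set beside the others. Some members of the gene lists below are in this class. Among the 94 most abundant genes, with a mean of at least 500 FPKM, 14 were higher and 5 lower. The largest rise among them was that of H3f3b, 1 of the pair of genes that code for the replacement histone H3.3, with 1642, 1489.6 and 1522 FPKM in (+)-JQ1 and 617, 565 and 528 FPKM in (−)-JQ1. The other gene of the pair, H3f3a, read 1443, 1301 and 1187 FPKM in (+)-JQ1 and 945, 902 and 761 FPKM in (−)-JQ1, again without overlap. Ednrb, the endothelin receptor of radial glia and astrocytes, fell from a mean of 629 ± 54.7 to 378 ± 18.5 FPKM (SD, n = 3 each).

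**Figure D2:**
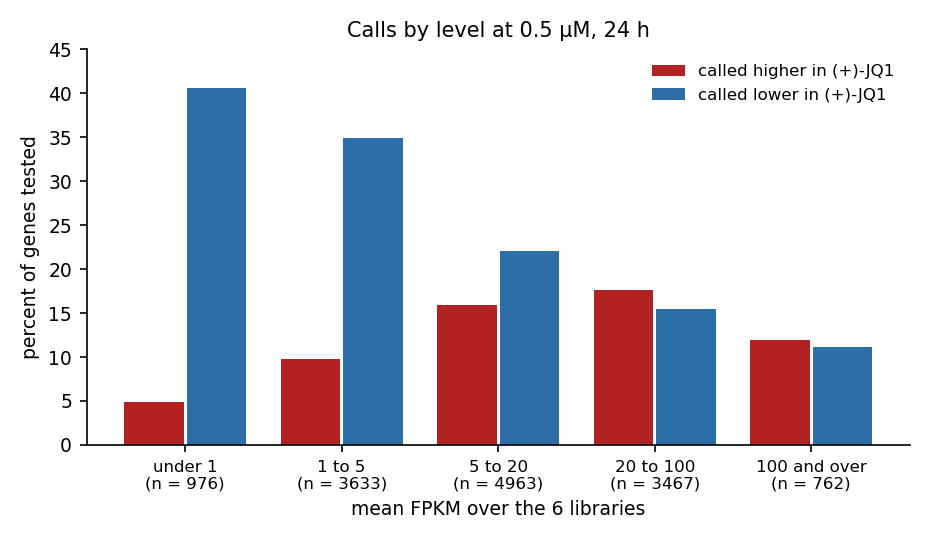
Percent of the genes tested (y axis) that were called higher (red) or lower (blue) in (+)-JQ1, in 5 classes of mean FPKM over the 6 libraries (x axis, with the number of genes). Lower calls make up 34.9% of genes of 1 to 5 FPKM and 11.2% of those of 100 FPKM and over, and the class under 1 FPKM is shaped by the filter on low values.

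Hexim1 codes for the inhibitor that holds P-TEFb inactive, and its message is known to rise when BET proteins are inhibited. It read 60.8, 67.2 and 65.5 FPKM in (+)-JQ1 and 18.9, 20.8 and 19.2 FPKM in (−)-JQ1. Every (+) library was far above every (−) library (log2 1.67 ± 0.09, adjusted p = 3.18e-12). Brd2 rose (log2 0.56 ± 0.11), with 110.0, 114.5 and 142 FPKM against 75.2, 81.5 and 89.5. Brd3 was not called, with a 95% interval of -0.44 to 0.01, and its groups overlapped. It was called lower with library weights (adjusted p = 0.0224) and without the 2 libraries high in Mir5105 (adjusted p = 0.0347). Of 19 genes of the BET proteins, P-TEFb and its regulators, 5 were higher (26.3%) and 2 lower (10.5%), beside 13.7% and 24.5% of all genes. The largest fall in that list was that of Hexim2, the low-level relative of Hexim1 (log2 -0.68 ± 0.15). Under median-of-ratios scaling 8 were higher and 2 lower, and without any 1 of the 3 (+) libraries or without (−) replicate 1 the higher ones numbered 3. With library weights, or without the 2 libraries high in Mir5105, 4 were lower.

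Myc, the growth regulator that is a known BET-dependent gene in many cells, read 7.13, 7.06 and 7.52 FPKM in (+)-JQ1 and 32.9, 37.4 and 35.9 FPKM in (−)-JQ1. The (+) libraries lay close together and far below the others (log2 -2.14 ± 0.14, adjusted p = 8.25e-11). Its relatives Mycn (log2 -0.73 ± 0.16) and Mycl1 (log2 -0.66 ± 0.14) fell as well. Of 12 genes of the Myc, Max and Mxd network, 4 were lower and 2 higher, which is not far from the 24.5% and 13.7% of all genes, and of the higher ones Mxi1, a Max partner that opposes Myc, changed most (log2 0.40 ± 0.12).

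Genes of maturing oligodendrocytes had the lowest median of the gene lists examined. In the list of premyelinating and myelin genes, 21 of 22 tested were lower and 1 higher, with a median of -2.65 beside -0.05 over all genes, and 20 of the 21 fell by 2-fold or more. Enpp6, a choline phosphodiesterase and a marker of newly forming oligodendrocytes, read 0.120, 0.304 and 0.210 FPKM in (+)-JQ1 and 43.3, 41.7 and 57.02 FPKM in (−)-JQ1. In the (+) libraries it was barely detectable (log2 -5.31 ± 0.13, adjusted p = 6.06e-17). Tnr, which codes for the matrix protein tenascin-R made by the same cells, read 1.67, 1.54 and 1.92 FPKM in (+)-JQ1 and 54.1, 41.2 and 73.7 FPKM in (−)-JQ1. Omg, the oligodendrocyte-myelin glycoprotein gene, read 0.850, 1.55 and 2.38 FPKM in (+)-JQ1 and 33.3, 37.5 and 45.7 FPKM in (−)-JQ1. In both genes the highest (+) library was a small fraction of the lowest (−) library (log2 -4.37 ± 0.21 and log2 -3.97 ± 0.21). Gm98, which is the older symbol of the myelin regulatory factor gene Myrf, fell from a mean of 34.5 ± 11.2 to 3.71 ± 0.850 FPKM. Sirt2, a deacetylase abundant in myelinating cells, fell from a mean of 437 ± 41.4 to 110.0 ± 13.5 FPKM. Mbp, the gene of myelin basic protein, named here after its values were seen, was lower but still well detected in (+)-JQ1. It read 22.7, 31.7 and 13.3 FPKM in (+)-JQ1 and 184, 207 and 275 FPKM in (−)-JQ1. The 1 member that rose was Rras2, a small GTPase that is not particular to the lineage (log2 0.74 ± 0.13). The summed level of the 22 genes was 348 to 469.9 FPKM in the (+) libraries and 2103 to 2481 in the (−) libraries. In bulk samples, fewer cells of a type and less RNA per cell cannot be told apart.

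Precursor genes fell less and less evenly. Of 19 tested, 14 were lower and 1 higher, with a median of -1.26. Gpr17, a receptor of precursors that are about to mature, read 5.75, 7.66 and 10.6 FPKM in (+)-JQ1 and 355, 348 and 391.5 FPKM in (−)-JQ1. It was the deepest fall of the list (log2 -5.38 ± 0.21, adjusted p = 5.24e-14), with no overlap. Matn4, a matrix protein gene, was at 0.0843, 0.113 and 0.211 FPKM in (+) against 12.0, 17.2 and 19.3 in (−)-JQ1, and the protocadherin gene Pcdh15 fell from a similar low level (log2 -2.45 ± 0.13). The transcription factors that specify the lineage changed by less. Sox10 read 24.4, 29.2 and 43.7 FPKM in (+)-JQ1 and 68.6, 71.3 and 116 FPKM in (−)-JQ1 (log2 -1.37 ± 0.20). Olig2 read 156, 165 and 187 FPKM in (+)-JQ1 and 295, 289 and 314 FPKM in (−)-JQ1 (log2 -0.82 ± 0.11). Both factors stayed well above the level of a silent gene, and the groups did not overlap. Olig1, named after its values were seen, was not called, with an interval of -1.07 to 0.13.

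**Figure D3:**
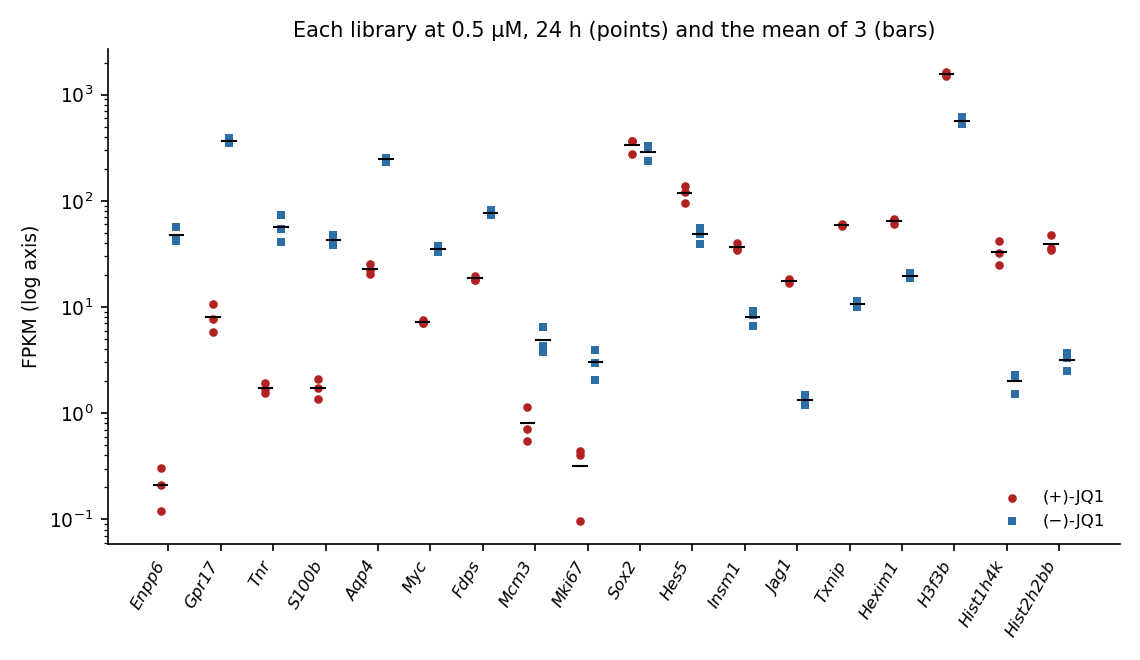
FPKM on a log axis (y axis) of 18 genes (x axis) in each of the 6 libraries, red circles for (+)-JQ1 and blue squares for (−)-JQ1, with the mean of 3 as a bar. Enpp6 lies between 0.120 and 0.304 in (+)-JQ1 and between 41.7 and 57.02 in (−)-JQ1, while for Sox2 the groups overlap.

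26 genes went from at least 5 FPKM in (−)-JQ1 to under 0.5 in (+)-JQ1, and among genes other than short RNAs 0 did the reverse. In these 26 genes no (+) library exceeded 0.675 FPKM and no (−) library was under 3.34. Enpp6 and Matn4 are among them. 9630013A20Rik, a long non-coding RNA gene, was listed at 0 in the 3 (+) libraries and stood at 13.8, 18.4 and 16.9 FPKM in the (−) libraries. Plxnb3, a semaphorin receptor of oligodendrocytes, read 0.0886, 0.209 and 0.236 FPKM in (+)-JQ1 and 19.9, 16.9 and 31.1 FPKM in (−)-JQ1 (log2 -4.28 ± 0.20). Pllp, a membrane protein gene of myelin, read 0.459, 0.413 and 0.255 FPKM in (+)-JQ1 and 9.13, 9.17 and 9.51 FPKM in (−)-JQ1, and Chadl, which codes for a collagen-binding matrix protein, 0.367, 0.223 and 0.2201 FPKM in (+)-JQ1 and 6.89, 7.51 and 10.3 FPKM in (−)-JQ1. The others of the 12 with the highest (−) levels were Me3, a mitochondrial malic enzyme gene, Gm973, Elfn2, the synapse organiser gene Cbln2, Lgi3 and Ppapdc1a, each with 5.19 FPKM or more in every (−) library and 0.623 or less in every (+) library. Not all of them are oligodendrocyte genes. Among the 15 largest falls were also 3110035E14Rik, which read 1.24, 1.34 and 0.893 FPKM in (+)-JQ1 and 101, 97.7 and 90.8 FPKM in (−)-JQ1, and Scrg1, a gene of glial cells that read 4.16, 4.91 and 3.81 FPKM in (+)-JQ1 and 127, 122 and 103 FPKM in (−)-JQ1. Plekhb1, a membrane-associated protein gene of the myelin list (log2 -3.63 ± 0.13), Lims2, an adaptor of integrin adhesions (log2 -4.03 ± 0.15), Cd82, a tetraspanin gene (log2 -3.71 ± 0.14), and the zinc transporter gene Slc39a12 (log2 -3.57 ± 0.12) completed this group.

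Astrocyte genes did not move as a block. Of 24 tested, 13 were lower and 2 higher, with a median of -0.54. S100b, which codes for a calcium binder made by astrocytes and also oligodendrocytes, read 1.36, 2.09 and 1.71 FPKM in (+)-JQ1 and 38.7, 48.1 and 41.1 FPKM in (−)-JQ1 (log2 -4.01 ± 0.21). Aqp4, the water channel of astrocyte end feet, read 20.4, 22.2 and 25.2 FPKM in (+)-JQ1 and 252, 255 and 232 FPKM in (−)-JQ1 (log2 -3.39 ± 0.19), and Mlc1, a membrane protein gene of the same end feet, read 23.3, 23.4 and 25.1 FPKM in (+)-JQ1 and 144, 163 and 155 FPKM in (−)-JQ1. In each of these 3 genes every (+) library lay far below the lowest (−) library. Gfap, the astrocyte intermediate filament, changed by less and read 201, 218 and 242 FPKM in (+)-JQ1 and 414, 497 and 410.1 FPKM in (−)-JQ1 (log2 -0.99 ± 0.13). The glutamate transporter gene Slc1a3 was not called although its groups did not overlap, with 561, 543 and 513 FPKM in (+)-JQ1 and 477, 488 and 400.0 FPKM in (−)-JQ1 and an interval of -0.15 to 0.65. Fgfr3, a receptor of the astrocyte lineage, rose (log2 0.51 ± 0.18), a call that ended without (+) replicate 1 (adjusted p = 0.0789), (+) replicate 2 (0.0755), (−) replicate 1 (0.0628) or (−) replicate 3 (0.0798). The S100 family of small calcium-binding proteins fell beyond S100b. Of 10 tested, 8 were lower and 0 higher by limma (0 also at an unadjusted p under 0.05), with a median of -2.08. S100a16 read 0.401, 1.73 and 1.10 FPKM in (+)-JQ1 and 37.1, 37.1 and 60.3 FPKM in (−)-JQ1, and S100a4 0.582, 2.36 and 0 FPKM in (+)-JQ1 and 14.02, 17.9 and 5.84 FPKM in (−)-JQ1.

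Genes of neural stem cells and radial glia, the dividing cells that line the ventricle, leaned upwards. Of 28 tested, 18 were higher and 5 lower, with a median of 0.50. Hes5, the Notch target that holds progenitors undifferentiated, read 96.2, 119.8 and 137 FPKM in (+)-JQ1 and 39.6, 49.2 and 55.8 FPKM in (−)-JQ1 (log2 1.27 ± 0.27). Nes (log2 0.61 ± 0.17) and Pax6 (log2 0.54 ± 0.15) rose, and Sox2 was not called, with an interval of -0.06 to 0.51. Fabp7 was called (log2 0.74 ± 0.27, adjusted p = 0.0329) with groups that overlapped, and its call ended in 5 of the 14 alternatives, among them the one that used just these 6 libraries (adjusted p = 0.0668) and the fits without (+) replicate 1 (0.124), (+) replicate 2 (0.129) or (−) replicate 3 (0.19). The members that fell included Tnc, the matrix protein tenascin-C (log2 -2.17 ± 0.20), and Prom1, which codes for the surface protein CD133 (log2 -1.31 ± 0.25). Prom1 read 2.22, 2.19 and 1.97 FPKM in (+)-JQ1 and 7.71, 7.48 and 5.35 FPKM in (−)-JQ1.

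Notch signalling passes from ligands on 1 cell to receptors on its neighbour, and Fringe enzymes tune the receptors. Of 21 genes of the pathway, 12 were higher and 5 lower, with a median of 0.38. The ligand gene Jag1 read 17.6, 18.3 and 16.8 FPKM in (+)-JQ1 and 1.34, 1.20 and 1.48 FPKM in (−)-JQ1, the largest rise of any gene outside the histones and short RNAs (log2 2.99 ± 0.13, adjusted p = 1.96e-13). The Fringe gene Mfng read 0.316, 0.0534 and 0.264 FPKM in (+)-JQ1 and 4.97, 4.87 and 6.87 FPKM in (−)-JQ1, and the ligand-like gene Dll3, whose product inhibits Notch in the same cell, read 12.8, 12.5 and 18.1 FPKM in (+)-JQ1 and 40.1, 44.3 and 52.1 FPKM in (−)-JQ1. The groups were apart in all 3 genes, with the ligand high and the other genes low in (+)-JQ1.

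Proneural and neurogenic factors, which drive progenitors towards neurons, leaned the same way. Of 19 tested, 12 were higher and 3 lower, with a median of 0.55. Insm1, a zinc finger factor of basal progenitors and new neurons, read 34.6, 35.2 and 39.6 FPKM in (+)-JQ1 and 8.33, 6.59 and 9.06 FPKM in (−)-JQ1 (log2 2.06 ± 0.20, adjusted p = 3.94e-08). Hes6, an inhibitor of Hes1 that favours neuron formation, read 84.9, 76.4 and 90.8 FPKM in (+)-JQ1 and 26.9, 32.1 and 28.3 FPKM in (−)-JQ1, and Ebf1, a helix-loop-helix factor of differentiating neurons, read 7.57, 5.83 and 9.34 FPKM in (+)-JQ1 and 2.20, 1.58 and 2.82 FPKM in (−)-JQ1. The groups were apart in all 3. Neurog2 was under 1 FPKM in every library and fell (log2 -0.48 ± 0.15), a call that ended with the GC trend removed (adjusted p = 0.105), without (+) replicate 3 (0.0878) or without (−) replicate 2 (0.0612). St18, a zinc finger gene of the Myt family, fell (log2 -1.10 ± 0.16).

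Genes of neurons themselves went both ways, with more falls than rises. Of 40 genes of the neuronal cytoskeleton, growth cone and synapse, 4 were higher and 15 lower, with a median of -0.24. These are 10% and 37.5%, beside 13.7% and 24.5% of all genes, and 7 were higher under either of the other scalings. Tubb3, the neuronal beta-tubulin, read 171, 169 and 223 FPKM in (+)-JQ1 and 87.5, 76.5 and 103 FPKM in (−)-JQ1 (log2 1.07 ± 0.18). Dcx, a microtubule protein of migrating neurons, read 22.9, 19.3 and 30.3 FPKM in (+)-JQ1 and 47.0, 38.8 and 59.5 FPKM in (−)-JQ1 (log2 -0.98 ± 0.18). Gap43, a growth cone protein gene, and the synaptic vesicle genes Sv2a and Cplx1 each fell by about 2 on the log2 scale (-2.09, -2.11 and -2.10). Voltage-gated ion channel genes fell in 27 of 44 cases and rose in 4, with a median of -0.54. Kcnk2, a potassium channel of the background type that was placed in this list, read 5.19, 5.74 and 3.51 FPKM in (+)-JQ1 and 43.8, 45.5 and 26.8 FPKM in (−)-JQ1. Of 28 receptor genes for glutamate, GABA and acetylcholine, 17 were lower and 3 higher (1 without (+) replicate 3), with a median of -0.69, and Grin3a, a subunit of NMDA receptors, read 0.629, 0.609 and 0.711 FPKM in (+)-JQ1 and 11.1, 8.88 and 11.4 FPKM in (−)-JQ1. Of 20 interneuron and ganglionic eminence genes 5 were higher and 5 lower, 25% each way, and the share of falls is near the 24.5% of all genes. The higher ones fell to 2 without (+) replicate 3 or (−) replicate 2 and to 3 without (+) replicate 1 or (−) replicate 3. Their homeobox gene Dlx2 rose (log2 0.95 ± 0.30), a call lost without (+) replicate 3 (adjusted p = 0.0971) or (−) replicate 2 (0.0746), while Npy, a neuropeptide gene, fell (log2 -2.10 ± 0.48).

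**Figure D4:**
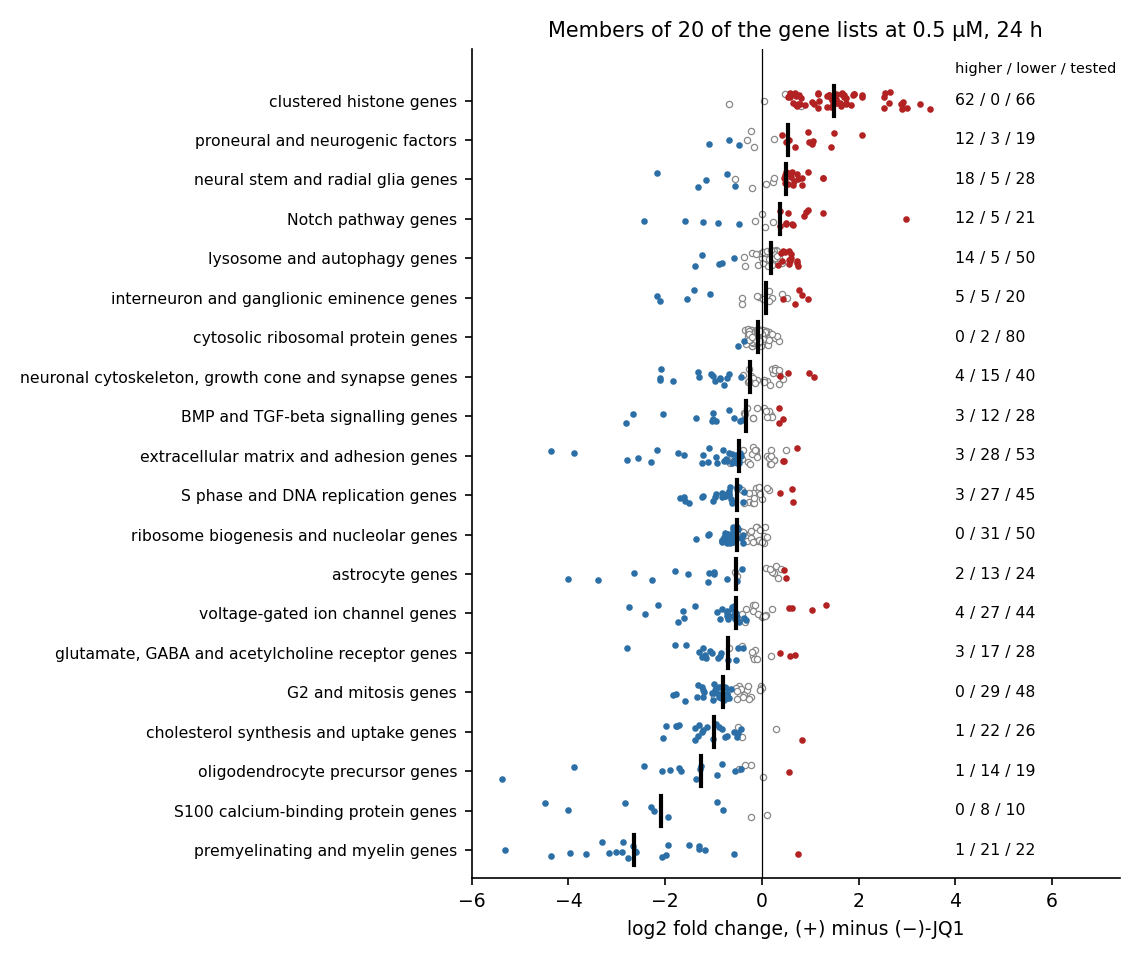
Log2 fold change (x axis, (+) minus (−)-JQ1) of each member of 20 gene lists (y axis), red where called higher, blue where called lower and open where not called, with the list median as a bar and the counts at the right. The medians run from 1.48 for clustered histone genes to -2.65 for premyelinating and myelin genes.

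Bone morphogenetic proteins bind surface receptors that activate Smad factors, and Smads switch on the Id genes, inhibitors of proneural and other helix-loop-helix factors. Of 28 genes of BMP and TGF-beta signalling, 12 were lower and 3 higher, with a median of -0.33. The higher ones numbered 0 without (+) replicate 1, 1 without (−) replicate 2 and 6 with the GC trend removed. The ligand gene Bmp4, which is also expressed by premyelinating oligodendrocytes, read 0.660, 1.27 and 1.21 FPKM in (+)-JQ1 and 11.1, 9.83 and 15.05 FPKM in (−)-JQ1 (log2 -2.66 ± 0.21). Id3 read 5.05, 7.90 and 8.38 FPKM in (+)-JQ1 and 44.1, 50.5 and 72.8 FPKM in (−)-JQ1 (log2 -2.80 ± 0.35) and Id1 2.79, 2.58 and 3.04 FPKM in (+)-JQ1 and 11.5, 15.8 and 17.5 FPKM in (−)-JQ1 (log2 -2.05 ± 0.25). Of the 3 members called higher, the secreted regulator gene Bmper changed most (log2 0.43 ± 0.14), a call that ended without (+) replicate 1 (adjusted p = 0.0871) or (−) replicate 3 (0.135).

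Clustered histone genes made up most of the rises of at least 4-fold. Replication-dependent histones are coded in clusters of short genes without introns, their transcription is coupled to S phase, and their messages end in a stem-loop in place of a poly(A) tail. Of 66 clustered histone genes tested, 62 were higher and 0 lower by limma (0 also at an unadjusted p under 0.05), with a median of 1.48, and 47 of the 170 genes that rose at least 2-fold were clustered histone genes. 1 was called lower where just these 6 libraries were fitted or the 2 libraries high in Mir5105 were left out. The classes differed in size. The summed level of the 13 H4 genes was 218, 259 and 193 FPKM in the (+) libraries and 16.1, 30.2 and 23.3 in the (−) libraries, a ratio of 9.63. The ratio was 3.92 for the 6 linker histone H1 genes in the files, 5 of them tested, 3.47 for H3, 2.96 for H2B and 2.27 for the 18 H2A genes, 17 of them tested. No class overlapped between the groups. Many histone genes are near-identical copies whose short reads may be shared, so the value of a single gene is uncertain and the sum of a class is less affected. Hist1h4k read 32.3, 41.4 and 24.8 FPKM in (+)-JQ1 and 1.51, 2.29 and 2.22 FPKM in (−)-JQ1 (log2 3.47 ± 0.36, adjusted p = 2.83e-07). Hist1h4i, with the highest level of the H4 genes, read 40.6, 49.6 and 43.2 FPKM in (+)-JQ1 and 3.29, 6.22 and 6.47 FPKM in (−)-JQ1 (log2 2.88 ± 0.29). Hist1h4n read 24.9, 26.9 and 17.3 FPKM in (+)-JQ1 and 2.73, 2.56 and 0.924 FPKM in (−)-JQ1 (log2 3.01 ± 0.43), and Hist2h2bb, an H2B gene of the second cluster, 34.3, 35.8 and 47.3 FPKM in (+)-JQ1 and 2.49, 3.72 and 3.28 FPKM in (−)-JQ1 (log2 3.27 ± 0.31). Because the libraries were selected for poly(A), a change in the share of histone messages with a tail would also show here, and its part in the result was not tested.

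Histone variants, whose genes lie outside the clusters and mostly give ordinary polyadenylated messages, were mixed. Of 12 tested, 7 were higher and 2 lower, with a median of 0.55. H1f0, the linker histone of slowly dividing cells, read 198, 187 and 246 FPKM in (+)-JQ1 and 67.5, 60.7 and 72.1 FPKM in (−)-JQ1, and H2afx, the variant of the DNA damage response, 82.3, 74.5 and 83.3 FPKM in (+)-JQ1 and 28.6, 24.8 and 26.1 FPKM in (−)-JQ1 (log2 1.56 ± 0.12). H2afy2, which codes for a macroH2A found on silent chromatin, went the other way, with 17.05, 15.1 and 17.9 FPKM in (+)-JQ1 and 44.1, 48.8 and 51.2 FPKM in (−)-JQ1 (log2 -1.47 ± 0.10).

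The promoters of histone genes that rose together are shown here because they differ in sequence between classes. They are taken from RefSeq on GRCm38.p6, as the 150 bases before the start, and 59 of the 66 clustered histone genes had an entry. Capitals mark GGTCCG, the core of the site-specific element of H4 genes, in the H4 genes, and CCAAT and the octamer ATTTGCAT in Hist2h2bb. The regions are chr13:21750554-21750703, chr13:22041363-22041512 and chr13:21832198-21832347 on the minus strand for the H4 genes and chr3:96269550-96269699 on the plus strand for Hist2h2bb.
Hist1h4k: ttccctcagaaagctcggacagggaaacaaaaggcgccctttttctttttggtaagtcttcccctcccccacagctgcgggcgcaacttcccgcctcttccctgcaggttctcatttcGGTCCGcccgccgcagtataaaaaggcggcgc
Hist1h4i: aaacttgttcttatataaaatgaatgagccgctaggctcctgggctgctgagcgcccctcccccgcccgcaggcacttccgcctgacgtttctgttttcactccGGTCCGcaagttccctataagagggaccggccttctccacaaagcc
Hist1h4n: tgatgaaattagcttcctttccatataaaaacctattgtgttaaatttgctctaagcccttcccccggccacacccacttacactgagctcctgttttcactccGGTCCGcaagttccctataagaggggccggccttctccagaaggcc
Hist2h2bb: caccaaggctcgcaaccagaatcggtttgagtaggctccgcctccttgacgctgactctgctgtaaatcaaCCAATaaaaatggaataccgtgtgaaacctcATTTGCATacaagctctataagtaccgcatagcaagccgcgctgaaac
Over the 250 bases before the start and on both strands, GGTCCG was found in 9 of 12 H4 promoters and in 14.1% of the 10006 promoters matched to genes tested. In Hist1h4i and Hist1h4n it begins 46 bases before the start and in Hist1h4k 32. ATTTGCAT was found in 7 of 16 H2B promoters and in 0 of 12 H4 promoters, against 1.54% of all, and CCAAT in 16 of 16 and 3 of 12, against 41.8%. In the sequences printed the marked motifs do not overlap, and a match is a description of the letters and not of a bound factor.

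Most called genes of the cell cycle itself went the other way from the clustered histones. Of 45 genes of S phase and DNA replication, 27 were lower and 3 higher, with a median of -0.52. Mcm3, a subunit of the replicative helicase, read 1.15, 0.552 and 0.705 FPKM in (+)-JQ1 and 6.54, 3.79 and 4.27 FPKM in (−)-JQ1 (log2 -1.69 ± 0.21), and Mcm5, another subunit, 0.669, 0.967 and 0.766 FPKM in (+)-JQ1 and 5.35, 4.30 and 3.95 FPKM in (−)-JQ1. Rrm2, the regulated subunit of the enzyme that makes deoxynucleotides, read 2.04, 2.03 and 1.69 FPKM in (+)-JQ1 and 8.06, 9.91 and 5.88 FPKM in (−)-JQ1. Pcna, the sliding clamp of replication, was among the 3 that rose, with 105, 106 and 94.9 FPKM in (+)-JQ1 and 72.2, 69.6 and 53.8 FPKM in (−)-JQ1 (log2 0.65 ± 0.12). Of 48 genes of G2 and mitosis, 29 were lower and 0 higher by limma (0 also at an unadjusted p under 0.05), with a median of -0.80. Mki67, a marker of cycling cells, read 0.444, 0.406 and 0.0958 FPKM in (+)-JQ1 and 3.97, 3.00 and 2.04 FPKM in (−)-JQ1 (log2 -1.59 ± 0.30), and Top2a, the topoisomerase that untangles replicated DNA, 1.85, 1.81 and 0.532 FPKM in (+)-JQ1 and 9.40, 7.39 and 4.69 FPKM in (−)-JQ1. Levels of these genes were low in both groups. A mean of at least 1 FPKM over the 6 libraries was reached by 32 of the 50 G2 and mitosis genes listed. It was reached by 39 of the 50 S phase genes listed. The other members tested belong to the class under 1 FPKM, which is shaped by the filter, and the counts and medians of both lists include them. The sum of the 48 genes was 50.1 to 62.0 FPKM in (+) and 100.4 to 156 in (−)-JQ1, without overlap. The sum of the 45 S phase genes, in contrast, overlapped, with 296 to 339.9 FPKM in (+) and 294 to 387 in (−)-JQ1. Among 22 genes of G1 cyclins and CDK inhibitors, 7 were lower and 4 higher, shares not far from those of all genes, and 7 were higher with the GC trend removed. The D cyclin genes Ccnd2 (log2 -1.15 ± 0.18) and Ccnd1 (log2 -1.12 ± 0.21) fell, and so did the CDK inhibitor gene Cdkn1c (log2 -1.80 ± 0.25). Cdkn1a, the p53-induced inhibitor, was not called although every (+) library was lower, with 6.24, 10.1 and 8.31 FPKM in (+)-JQ1 and 15.9, 14.8 and 14.996 FPKM in (−)-JQ1 (log2 -0.84 ± 0.35, adjusted p = 0.0646), and it was called with the replicate block (adjusted p = 0.0171) and where just these 6 libraries were fitted (adjusted p = 0.00362).

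Most genes of cholesterol synthesis fell. Cells make cholesterol from acetyl-CoA in a long chain of enzymes, whose genes are switched on by the factor Srebf2 when sterols are short. Of 26 genes of synthesis and uptake tested, 22 were lower and 1 higher, with a median of -0.98. Their summed FPKM, to which the most abundant members contribute most, overlapped between the groups, with 2921 to 3898 in (+) and 3086 to 3752 in (−)-JQ1. Fdps, which makes farnesyl diphosphate, read 18.1, 17.97 and 19.6 FPKM in (+)-JQ1 and 73.3, 81.6 and 75.4 FPKM in (−)-JQ1 (log2 -1.99 ± 0.20, adjusted p = 9.83e-08). Idi1, an isomerase just before it in the chain, read 20.003, 17.3 and 21.7 FPKM in (+)-JQ1 and 72.6, 66.4 and 69.9 FPKM in (−)-JQ1 (log2 -1.78 ± 0.28). In both the (+) libraries lay together and far below the lowest (−) library. The member that rose was Abca1, which exports cholesterol and is known to be switched on when sterols are plentiful, with 53.2, 50.5 and 41.6 FPKM in (+)-JQ1 and 28.7, 27.2 and 24.3 FPKM in (−)-JQ1 (log2 0.83 ± 0.23). Among 31 fatty acid and lipid genes, 12 were lower and 1 higher, and the higher ones numbered 3 when libraries were scaled by median ratio, 7 after removal of the GC trend and 2 without (+) replicate 1, (+) replicate 3 or (−) replicate 3. The myelin lipid gene Gal3st1, which makes sulfatide, fell (log2 -2.98 ± 0.20), and Acss2, which makes acetyl-CoA from acetate, rose (log2 1.27 ± 0.15).

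The promoters of Hmgcs1, the synthase at the head of the chain, and of Idi1 are shown for the elements of sterol control. Capitals mark TCACCCCAC, the sterol regulatory element core, and CCAAT, which reads ATTGG on the strand printed. They are chr13:119690201-119690350 and chr13:8885456-8885605, both on the plus strand of GRCm38.p6. Hmgcs1, chosen for its promoter and not by the rule for named genes, read 180.1, 149 and 164 FPKM in (+)-JQ1 and 388, 337 and 359 FPKM in (−)-JQ1 (log2 -1.13 ± 0.24).
Hmgcs1: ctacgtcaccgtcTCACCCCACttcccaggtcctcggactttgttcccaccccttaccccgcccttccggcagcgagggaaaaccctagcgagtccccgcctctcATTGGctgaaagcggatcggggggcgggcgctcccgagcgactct
Idi1: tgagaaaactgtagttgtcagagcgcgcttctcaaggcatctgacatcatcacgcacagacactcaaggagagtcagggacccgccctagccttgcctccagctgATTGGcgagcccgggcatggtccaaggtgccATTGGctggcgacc
CCAAT was found on either strand within 250 bases before the start in 17 of the 19 cholesterol genes with a promoter entry, against 41.8% of all promoters. TCACCCCAC was found in 1 of the 19, against 0.640% of all. The motif CACGTG, bound by Myc and other factors, was found in 5 of the 19 and in 9.95% of all.

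Genes of ribosome biogenesis, the making of ribosomes in the nucleolus, were mostly lower, and few genes of the ribosomal proteins themselves were called. Of 50 biogenesis genes, 31 were lower and 0 higher by limma (0 also at an unadjusted p under 0.05), with a median of -0.52. Rrs1, a ribosome assembly factor, read 6.57, 8.52 and 7.34 FPKM in (+)-JQ1 and 20.1, 22.3 and 19.9 FPKM in (−)-JQ1 (log2 -1.37 ± 0.12), and Gar1, a protein of the particles that modify ribosomal RNA, 4.99, 4.81 and 4.03 FPKM in (+)-JQ1 and 10.8, 11.5 and 10.98 FPKM in (−)-JQ1. Of 80 cytosolic ribosomal protein genes 2 were lower and 0 higher (0 also at an unadjusted p under 0.05), with a median of -0.09. They were Rpl35 (log2 -0.37 ± 0.14) and Rpsa (log2 -0.48 ± 0.17), and neither was called under either of the other scalings, by median ratio or GC trend, which called 1 and 3 others of the list higher. Single values of ribosomal protein genes are uncertain because many have near-identical pseudogenes. Respiratory chain and ATP synthase genes were similar, with 5 of 77 lower, 0 higher (1 at an unadjusted p under 0.05) and a median of -0.09. Median-of-ratios scaling gave 2 lower and 1 higher, removal of the GC trend 4 and 3, and the fit to these 6 libraries 11 and 1. Without (+) replicate 2 or 3 the lower ones numbered 3, and without (−) replicate 2 or 3 they numbered 2. 10 of 20 aminoacyl-tRNA synthetase genes were lower and 1 higher, with 4 lower without (+) replicate 3.

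Matrix and contractile genes fell, and so did a few markers of fibroblasts and mural cells, some of which are the same genes. Of 53 genes of extracellular matrix and adhesion, 28 were lower and 3 higher (1 without (+) replicate 3, (−) replicate 1 or (−) replicate 2), with a median of -0.48. Besides Tnr and Matn4, Spon1, a matrix protein gene, read 3.36, 3.77 and 4.60 FPKM in (+)-JQ1 and 31.5, 32.6 and 33.7 FPKM in (−)-JQ1 (log2 -2.78 ± 0.14). Acta2, the smooth muscle actin, read 26.2, 21.4 and 21.4 FPKM in (+)-JQ1 and 132, 123 and 95.2 FPKM in (−)-JQ1, and Myl9, a myosin light chain, 7.33, 5.35 and 5.67 FPKM in (+)-JQ1 and 61.1, 50.5 and 53.8 FPKM in (−)-JQ1. Of 16 contractile genes 9 were lower and 0 higher (0 also at an unadjusted p under 0.05). Of 9 mural and fibroblast markers tested, out of 16 listed, 6 were lower and 1 higher, Acta2 and the precursor gene Pdgfra among the former, and the summed level of the 16 was 54.1 to 71.3 FPKM in (+) and 195 to 272 in (−)-JQ1. The defining fibroblast genes Col1a1, Col3a1 and Dcn did not exceed 3.54 FPKM in any of the 6 libraries. The part of such cells in the fall of matrix and contractile genes was not tested.

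Txnip, which codes for a brake on glucose uptake and on thioredoxin, was the second largest rise outside the histones and short RNAs. It read 61.0, 57.3 and 58.7 FPKM in (+)-JQ1 and 10.6, 11.4 and 10.1 FPKM in (−)-JQ1, with no overlap (log2 2.36 ± 0.15, adjusted p = 1.08e-10). Polr2a, the largest subunit of RNA polymerase II, rose, with 79.5, 74.0 and 86.4 FPKM in (+)-JQ1 and 37.8, 29.5 and 41.5 FPKM in (−)-JQ1 (log2 1.13 ± 0.13). Of 46 Mediator and polymerase genes 4 were called higher (8.7%) and 7 lower (15.2%), beside 13.7% and 24.5% of all genes. That balance turned under median-of-ratios scaling, to 9 higher and 6 lower, and with the GC trend removed, to 14 and 6. Without (+) replicate 1 the higher ones numbered 2. Under median-of-ratios scaling the balance also turned for 58 chromatin-modifying enzyme genes, from 4 higher and 10 lower to 11 and 7. Odc1, the first enzyme of polyamine synthesis and a known Myc target, rose (log2 0.98 ± 0.12) while Srm, which makes spermidine, fell (log2 -1.27 ± 0.16). Btg1, an inhibitor of proliferation, was the largest rise among immediate early and related genes (log2 1.24 ± 0.10). Of the 24 genes of that list 8 were higher (33.3%) and 4 lower (16.7%).

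The same contrast can be set beside the lower dose at 24 h and the earlier time at 0.5 µM, each with its own (−)-JQ1 libraries. At 0.2 µM and 24 h, 32.8% of genes were called, 11% higher and 21.8% lower. At 0.5 µM and 12 h the shares were 38.3%, 12.2% and 26.1%. Of the 1042 genes at least 2-fold lower at 0.5 µM and 24 h, 1007 were also among the 3006 called lower with the lower dose, and 968 among the 3599 called lower at the earlier time. Their median change was -1.35, -1.10 and -1.18 in that order. As the genes were chosen by their fall at 0.5 µM and 24 h, the first of these values is set by the choice, and no order is read from them. Of the 170 that were at least 2-fold higher, 157 were called higher in each of the other comparisons.

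The test of the difference itself called few genes. The effect differed between the doses at 24 h for 40 genes (0.29%), 39 more negative (0.283%) and 1 more positive (0.00725%) at 0.5 µM, the last being the short RNA gene Snora65. Gpr17 led them: its (+) against (−) change was log2 -2.73 ± 0.21 at 0.2 µM, and the difference was log2 -2.65 ± 0.30, adjusted p = 0.000128. Tnr (log2 -2.12 ± 0.29), Enpp6 (log2 -1.91 ± 0.19), Gm98 (log2 -1.58 ± 0.28) and Aqp4 (log2 -1.55 ± 0.27) followed. Of the 22 premyelinating and myelin genes, 7 had a larger fall at the higher dose, and of the 19 precursor genes 3. A fit to the 12 libraries of this test alone called 3 genes lower and 0 higher (103 higher at an unadjusted p under 0.05). In that fit the calls of Tnr (adjusted p = 0.0643), Aqp4 (0.0643) and Gm98 (0.134) ended, and that of Gm98 also ended with library weights (0.0845). Without (+) replicate 1, (−) replicate 1 or (−) replicate 3 of the 0.5 µM groups the count was 21, 25 or 26.

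The effect differed between 12 and 24 h for 45 genes (0.326%), 35 more negative (0.254%) and 10 more positive (0.0725%) at 24 h. Pcp4, a calmodulin regulator gene, fell at 12 h (log2 -1.46 ± 0.22) and rose at 24 h (log2 0.95 ± 0.22), with a difference of log2 2.41 ± 0.32, adjusted p = 0.000541. Nsg2, a neuronal vesicle protein gene, fell less at 24 h (log2 1.03 ± 0.13). Of the cell cycle genes, 29 of 48 G2 and mitosis genes were lower at 24 h against 1 lower and 1 higher at 12 h, with medians of -0.80 and 0.26. The libraries spread widely at 12 h. There the sum of the 48 genes was 108 to 253 FPKM in (+)-JQ1 (median 109) and 93.0 to 164 in (−)-JQ1 (median 104). The difference of the effect between the times was called for 1 of the 48, Mki67 (log2 -2.01 ± 0.42, adjusted p = 0.0398). It was also called for Rrm2 of the S phase list (log2 -1.84 ± 0.35, adjusted p = 0.0205). The call of Mki67 ended in 9 of the 14 alternatives, the replicate block among them (adjusted p = 0.0534). That of Rrm2 ended without (+) replicate 1 (0.0517), 2 (0.0559) or 3 (0.067) and without (−) replicate 1 (0.0575) or 2 (0.0655). In (−)-JQ1, the summed level of the 22 premyelinating and myelin genes was 1183 to 1316 FPKM at 12 h and 2103 to 2481 at 24 h, and in (+)-JQ1 it was 269.6 to 298 and 348 to 469.9. Enpp6 was the member whose effect differed between the times (log2 -1.49 ± 0.19). Without (+) replicate 1, 2 or 3 the count of 45 became 25, 24 or 29, and without (−) replicate 1 it became 29.

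**Figure D5:**
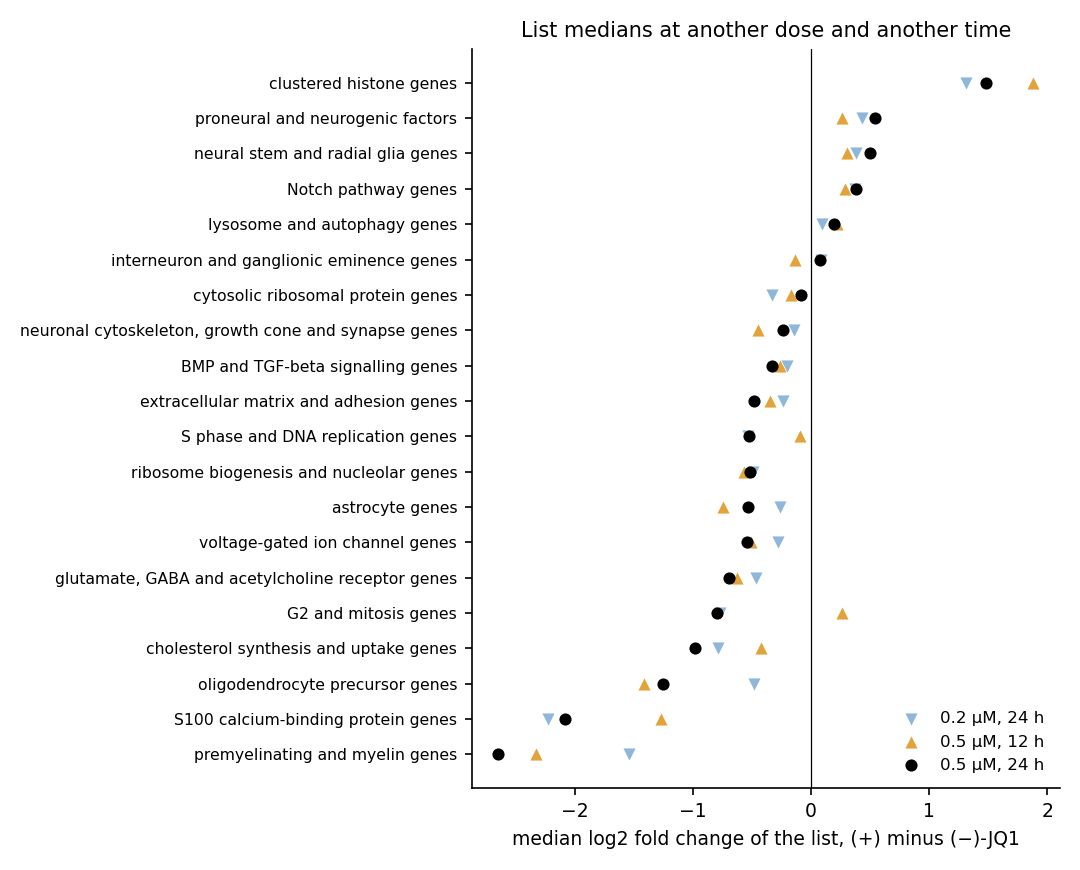
Median log2 fold change (x axis, (+) minus (−)-JQ1) of 20 gene lists (y axis) at 0.5 µM and 24 h (black circles), 0.2 µM and 24 h (blue triangles) and 0.5 µM and 12 h (orange triangles). G2 and mitosis genes lie at -0.80 after 24 h and at 0.26 after 12 h, and premyelinating and myelin genes at -2.65 and -2.33.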

How the data were processed

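The 24 libraries were made from poly(A)-selected RNA and read as 50-base reads, per the labels' protocols. The submitters' processing notes name FastQC, TopHat2 and the mm9 build. The values deposited by the authors are FPKM per gene in 1 file for each library, as their range and gene-wise steps show, and the program and annotation behind them are not given in the sources used here. From 26694 entries in each file, 58 of 29 repeated symbols were left out. Genes reaching 1 FPKM in 3 or more libraries entered a limma 3.58.1 fit (R 4.3.3) to log2(FPKM + 1), with a pseudocount of 1 and no further scaling. The fit estimated 8 group means over all libraries, which left 16 residual degrees of freedom, and moderated variances with a trend and robustly. P-values were adjusted by Benjamini-Hochberg over all genes. Tables and figures were made with Python 3.11.15, pandas 2.3.3, numpy 2.4.6 and matplotlib 3.10.9. P-values rest on the spread between the 3 preparations within a group, pooled over the 8 groups of all doses and times and moderated across genes. On simulated data for this comparison, 67 of 13801 genes were given a change of 1.5-fold, 67 of 2-fold and 66 of 4-fold. All of them were drawn from genes with a mean of at least 5 FPKM over the 24 libraries. Of these, 38 (56.7%), 62 (92.5%) and 66 (100%) were called. The shares describe the genes that were given a change and not all genes tested. No gene of lower level was given a change, so the shares do not describe recovery among genes under 5 FPKM.

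The comparison and the 60 gene lists were chosen with earlier results of these data known, so they are not independent evidence. Genes were named by rule: the 15 largest rises and falls with at least 5 FPKM in the higher group and no overlap, up to 12 genes nearly switched off, the 3 most changed members of each list with the largest of the other sign, the 5 most changed abundant genes each way, the 5 largest dose and time differences each way, and 23 fixed genes. A few others are said to be chosen later. Some genes that the rule names are not reported here. Promoters came from RefSeq (GRCm38.p6), with 10006 of 13801 genes matched (72.5%), and 250 bases before the start were searched on both strands. Alternatives were a pseudocount of 0.1, no filter, median-of-ratios scaling, library weights, a replicate block, removal of a GC trend (loess span 0.3, for the 94.5% of genes with a known GC content), fits to the libraries compared alone, and fits without single libraries or the 2 libraries high in Mir5105.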

Additional observations from a re-analysis of the deposited data

Results flagged for a closer look

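The effect of the enantiomer differed between 0.2 and 0.5 µM at 24 h for 40 genes by limma's test of the difference, and between 12 and 24 h at 0.5 µM for 45 genes. Values here are differences of log2 fold changes, the 0.5 µM or 24 h effect minus the other. Besides Gpr17 (-2.65), Tnr (-2.12), Enpp6 (-1.91), Gm98 (-1.58) and Aqp4 (-1.55), genes that fell more at the higher dose were 3110035E14Rik (-1.26), the zinc transporter gene Slc39a12 (-1.19), the fatty acid elongase gene Elovl7 (-1.09), the matrix gene Spon1 (-1.09), Gm973 (-1.06), the growth factor gene Tgfa (-1.03), the glutamate transporter gene Slc1a1 (-0.98), Plekhb1 (-0.90) and the semaphorin gene Sema5a (-0.88). All of these but Gpr17 and Enpp6 lost the call in the fit to the 12 libraries alone. Gm973 and Plekhb1 each lost it in 11 of the 14 alternatives, Plekhb1 also with the replicate block (adjusted p = 0.0506), and Sema5a in 7, Tgfa in 4 and Spon1 in 3.

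At the later time the effect was more negative for Mki67 (-2.01), Rrm2 (-1.84), 2810417H13Rik, a gene for a PCNA-associated factor (-1.72), Scrg1 (-1.63), Acta2 (-1.57), Enpp6 (-1.49), 9630013A20Rik (-1.22), the small heat shock protein gene Cryab (-1.19) and Slc39a12 (-0.98). It was more positive for Pcp4 (2.41), Bmper (1.45), Nsg2 (1.03), Jag1 (0.99) and the GTPase regulator gene Rap1gap (0.96). The call of Slc39a12 ended with a pseudocount of 0.1 in place of 1, where its difference was -0.39 (adjusted p = 0.963). 2810417H13Rik lost the call in 5 alternatives and Jag1 in 2. Pcp4 and Bmper were called lower at 12 h and higher at 24 h.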

How the results depend on the processing

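The count of genes called in (+) against (−)-JQ1 at 0.5 µM and 24 h stayed within 1.5 times of 5273 under all 14 alternatives, and no fold change of a named gene changed sign. The balance of higher and lower calls did turn in some gene lists under median-of-ratios scaling. It became 11 and 7 for chromatin, 9 and 6 for Mediator and polymerase and 17 and 16 for axon guidance genes. For glycolysis genes it became 6 and 5, for splicing factors 7 and 4, for Hippo and YAP target genes 5 and 3 and for cytosolic ribosomal protein genes 1 and 0. The split moved more, with 2953 genes higher with the GC trend removed. Without single libraries the total ran from 4509 to 4805, higher calls from 1459 to 1737 and lower calls from 2935 to 3232. Of the 834 list members called, 741 to 776 were called without 1 library, and of the 241 named genes 232 to 235. 225 named genes were called under all 14 alternatives. The 16 others, including Agrn, Chrna7, Ptn, Rfx4, Gnas, Rpl35 and Rpsa, lost the call at least once, and Brd3, Cdkn1a and Gapdh gained one.

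Dose differences numbered 40 and fell to 17 with library weights (16 lower) and to 3 in the fit to the 12 libraries alone (0 higher, 3 lower). Without single libraries they ran from 21 to 43, with 1 to 5 higher and 20 to 38 lower, and 2 were higher with the replicate block, without the 2 libraries high in Mir5105, or after GC correction. Time differences numbered 45 and rose to 172 with library weights (49 higher, 123 lower) and to 70 with the GC trend removed (56 lower). They ran from 24 to 39 without single libraries, with 5 to 9 higher and 18 to 31 lower, and 17 were higher without the libraries high in Mir5105. The causes were not tested. Same-numbered libraries of the 2 groups correlated by 0.0458, 0.166 and 0.292 in their deviations from the group means. For 17 of the 24 libraries, the mean correlation with libraries of other groups was highest for their own number. The numbers were not taken as pairs in the main fit, and whether same-numbered libraries share a preparation was not settled. A replicate block gave 5399 calls (1958 higher, 3441 lower).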

Other observations

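Counts of calls in several other gene groups follow, to be read beside the 13.7% higher and 24.5% lower of all genes. Of 17 hypoxia-induced genes 6 were higher and 1 lower, and P4ha1, a collagen hydroxylase gene, read 27.1, 27.2 and 22.9 FPKM in (+)-JQ1 and 15.7, 13.7 and 12.6 FPKM in (−)-JQ1, while Hif1a itself fell (log2 -0.45 ± 0.10). Of 19 circadian clock genes 7 were higher and 2 lower (1 lower without (+) replicate 2, (−) replicate 1 or (−) replicate 3). Hlf, a clock output factor, read 11.5, 11.1 and 8.33 FPKM in (+)-JQ1 and 3.20, 3.50 and 1.83 FPKM in (−)-JQ1, and Per3, a clock repressor, rose (log2 0.93 ± 0.15) while its relative Per1 fell (log2 -0.53 ± 0.15). Of 50 lysosome and autophagy genes 14 were higher and 5 lower, with 24 and 5 under median-of-ratios scaling. Lamp2, a lysosomal membrane protein gene, rose (log2 0.75 ± 0.10), whereas Tfeb, the factor that drives lysosome genes, fell (log2 -1.37 ± 0.16).

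Interferon and MHC genes divided, with 12 of 27 lower and 5 higher. Ifitm3, an antiviral membrane protein gene, read 0.290, 0.392 and 0.387 FPKM in (+)-JQ1 and 3.34, 6.23 and 7.47 FPKM in (−)-JQ1, and H2-D1, an MHC class I gene, read 10.8, 14.02 and 10.8 FPKM in (+)-JQ1 and 3.72, 5.19 and 4.13 FPKM in (−)-JQ1. Of 16 genes of motile cilia and ependyma 10 were lower and 1 higher. Foxj1, the master factor of motile cilia, read 4.31, 4.51 and 3.84 FPKM in (+)-JQ1 and 20.8, 22.5 and 17.7 FPKM in (−)-JQ1. Among 52 axon guidance genes 14 were higher and 19 lower, a balance that turned to 17 and 16 under median-of-ratios scaling and to 22 and 17 with the GC trend removed. The ephrin gene Efnb2 rose (log2 1.77 ± 0.11) and the semaphorin gene Sema5a fell (log2 -2.80 ± 0.12). Among 31 imprinted and long non-coding RNA genes 9 were higher and 8 lower (7 and 7 without (+) replicate 1 or (−) replicate 3), with Neat1, the RNA of nuclear paraspeckles, at 9.68, 13.4 and 7.89 FPKM in (+)-JQ1 and 1.54, 2.59 and 2.17 FPKM in (−)-JQ1 and H19 at 1.03, 1.19 and 1.03 FPKM in (+)-JQ1 and 6.46, 5.14 and 4.64 FPKM in (−)-JQ1. Groups did not overlap in any of the genes given here with values, as in 48.1% of all genes tested.

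Of 260 protein-coding genes with a single exon, histone genes left out, 20.8% were higher and 21.2% lower, beside 13.8% and 27.1% of 11521 genes with several exons. The genes of the class of longest genomic span, of 5 of equal size, had more calls in both directions (17.6% higher, 33.9% lower) than those of the class of shortest span (10.5% and 25.1%). These shares are descriptions of genes that differ in level and class as well, and no test was made of them.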
